A study of Homo sapiens with 3 samples.

Results

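The 31 genes described here encode the endosomal sorting complexes required for transport (ESCRT), the machinery that cuts membrane necks from the inside. They were chosen by name from 33538 genes, by a rule that uses no measured value although earlier results of these data were known, and fall into 3 genes of ESCRT-0, 9 of ESCRT-I, 3 of ESCRT-II, 12 of ESCRT-III, 3 of the VPS4 group and PDCD6IP, which encodes the adaptor ALIX. ESCRT-0 gathers ubiquitinated cargo on endosomes, and ESCRT-I and ESCRT-II bend the membrane and hand on to ESCRT-III. ESCRT-III subunits polymerise into filaments inside the neck, and the ATPases VPS4A and VPS4B remodel and take apart those filaments. The same filaments cut the intercellular bridge at the end of cytokinesis, release budding viruses and exosomes, and reseal the plasma membrane and the nuclear envelope.

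All cells were of HCT116, a colorectal cancer line, in its p53plus genotype, and 2 droplet libraries were made from them with 10x Genomics chemistry that reads the 3' end of each RNA. Mix1 held only irradiated cells (8 Gy), pooled from giant cells that were isolated on day 5 or day 8 and kept in culture to day 10 or day 11, and these parts cannot be resolved. Mix2 pooled irradiated cells prepared in that way (IR, hashtag tag8, 10000 cells loaded) with non-irradiated cells (NC, tag6, 1000 cells; 0 Gy) and repopulated cells (R, tag7, 1000 cells), which by the study's description had also received 8 Gy and were taken on day 30. Irradiated cells of Mix2 were split by their hashtag count into weak IR (500 to 3159 counts of tag8) and strong IR (above 3159). Whether a low tag8 count came from the staining or from the cells is not given in the labels and cannot be told apart here. The study asked how such giant cells give rise to progeny, and the question asked of the deposited counts was how the levels of the ESCRT genes differed between these populations.

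After filtering, NC had 810 cells and 6104377 gene UMIs, weak IR 6322 cells and 46991674 UMIs, strong IR 2216 cells and 27127545 UMIs, R 633 cells and 4731705 UMIs, and Mix1 15630 cells and 150680612 UMIs. A UMI (unique molecular identifier) counts 1 captured RNA molecule at its 3' end, so levels in UMIs per 1e+06 gene UMIs (CPM) can be compared between genes without a correction for length. Each population was 1 sample, so there were no replicates and no test was made. Intervals are exact 95% intervals and cover counting error only. The median depth was 7160.5 UMIs per cell in NC, 7216 in weak IR, 11861.5 in strong IR, 6933 in R and 8995.5 in Mix1. The epithelial markers EPCAM, KRT8, KRT18 and CDH1 summed to between 2740 CPM in NC and 4106 CPM in strong IR, whereas the immune, fibroblast, endothelial and erythroid lists each stayed at or below 6.71 CPM. The 36 genes of G2 and M phases summed to 4821 CPM in NC, 4119 in weak IR, 1949.8 in strong IR, 4817 in R and 2347 in Mix1. The cell lists of Mix1 and Mix2 shared 59 barcodes.

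Promoters are shown for 3 ESCRT-III genes whose levels moved in different ways, CHMP2A and its paralogue CHMP2B, and CHMP1B, as the 250 bases before the start of the gene in RefSeq (GRCh38.p14), 5′ to 3′ on the strand of the gene. Capitals mark the motifs that were found. CHMP2A lies on the minus strand with this window at chr19:58555106-58555355, CHMP2B on the plus strand with its window at chr3:87227059-87227308, and CHMP1B on the plus strand with its window at chr18:11851163-11851412.
CHMP2A: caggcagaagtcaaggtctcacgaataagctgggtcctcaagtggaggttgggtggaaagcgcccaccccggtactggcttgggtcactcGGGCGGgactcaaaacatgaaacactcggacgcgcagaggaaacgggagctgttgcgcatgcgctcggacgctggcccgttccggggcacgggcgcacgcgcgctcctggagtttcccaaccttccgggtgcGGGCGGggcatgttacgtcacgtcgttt
CHMP2B: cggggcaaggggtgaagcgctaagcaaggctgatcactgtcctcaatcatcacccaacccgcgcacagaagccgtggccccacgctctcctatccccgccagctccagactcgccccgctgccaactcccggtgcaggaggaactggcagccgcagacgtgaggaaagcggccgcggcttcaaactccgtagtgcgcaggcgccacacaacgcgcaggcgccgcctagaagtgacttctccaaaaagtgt
CHMP1B: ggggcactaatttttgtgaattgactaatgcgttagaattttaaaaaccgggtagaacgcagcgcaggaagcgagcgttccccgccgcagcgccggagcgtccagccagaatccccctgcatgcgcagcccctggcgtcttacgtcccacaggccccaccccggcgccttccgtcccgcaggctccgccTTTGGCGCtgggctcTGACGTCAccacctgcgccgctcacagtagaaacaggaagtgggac

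In these windows CHMP2A held 2 copies of the GC box GGGCGG, CHMP2B none of the motifs searched, and CHMP1B the cyclic AMP response element TGACGTCA and the E2F-like word TTTGGCGC. Both strands were searched for these words and for the E-box CACGTG, an interferon-response-like element, the CCAAT box and the E2F-like word TTTCCCGC. None of these words overlapped another in the 3 windows shown. Of the 31 genes 24 had a window. The GC box was in 16 of the 24 (66.7%) against 42.6% of all 35116 windows, CCAAT in 7 (29.2%) against 32.0%, the E-box in 4 (16.7%) against 6.34%, TGACGTCA in 3 (CHMP1B, UBAP1 and VPS37B, 12.5%) against 1.65%, TTTGGCGC in 2 (CHMP1B and VTA1, 8.33%) against 0.55%, and TTTCCCGC in 1 (UBAP1, 4.17%) against 1.39%. The interferon-response-like element was in none of the 24 and in 3.02% of all windows. Members were counted once per gene and the background once per window, over all windows and not only those of genes measured here. The shares are therefore not strictly like for like. A match is a description of the letters and not of binding.

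The machinery as a whole was close to level across the populations. The 31 genes summed to 1789 CPM in NC, 1812 in weak IR, 1909.9 in strong IR, 1777 in R and 1821 in Mix1. The ratio to NC was 1.07 in strong IR (95% interval 1.05 to 1.09), 1.01 in weak IR (0.99 to 1.03), 0.99 in R (0.96 to 1.02) and 1.02 in Mix1 (0.998 to 1.04). Without VPS28, the member with the highest ratio in strong IR among those measured, the strong IR ratio was 1.03. Of the 31 genes, 28 were measured, that is at 10 CPM or above in at least 1 of the populations compared, and VPS37C, VPS37D and MVB12B were below that level in every population. The median log2 ratio to NC over the 28 was -0.05 in strong IR, 0.02 in weak IR, -0.03 in R and -0.03 in Mix1, beside -0.11, -0.03, -0.04 and -0.08 over all genes measured.

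**Figure D1:**
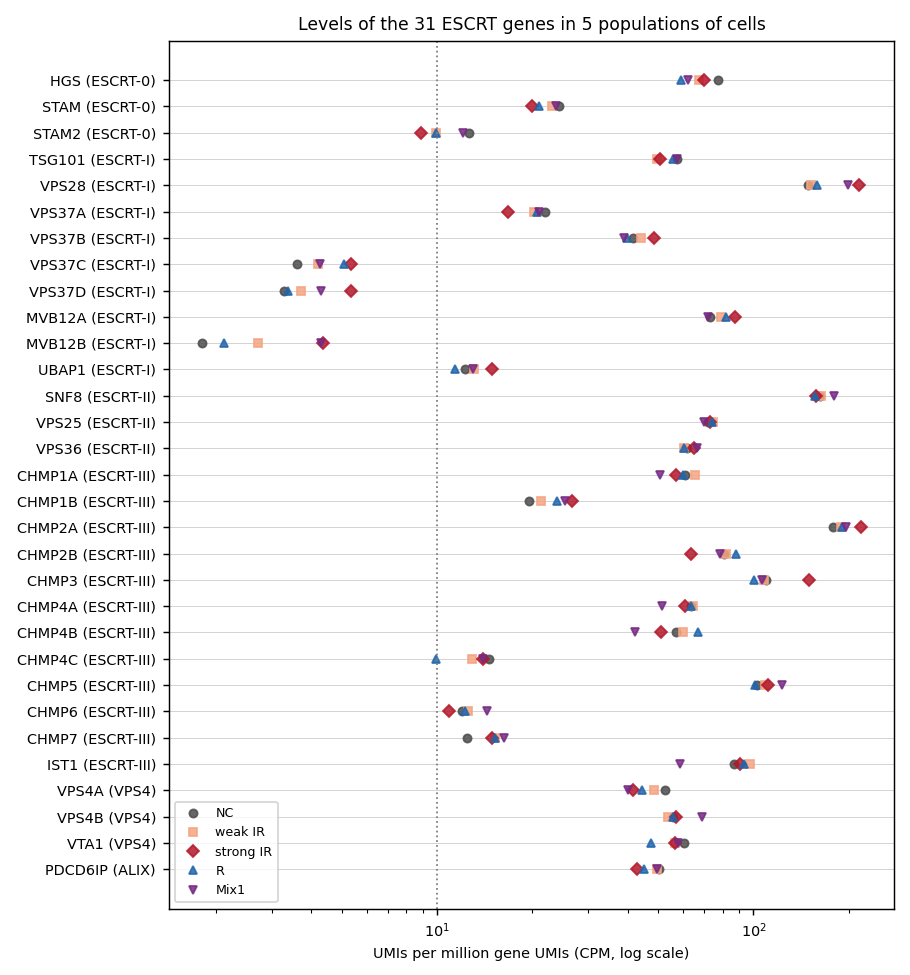
Level of each ESCRT gene (CPM, log scale, horizontal axis) in NC, weak IR, strong IR, R and Mix1, 1 point per population, with the subcomplex in brackets and the 10 CPM minimum as a dotted line. CHMP2A, VPS28 and SNF8 were the most abundant members in NC, at 178, 149 and 163 CPM, and VPS37C, VPS37D and MVB12B stayed left of the line in all 5.

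Per cell the picture was different, since more UMIs in all were captured from strong IR cells. They held on average 23.4 ESCRT UMIs against 13.5 in NC, a ratio of 1.73, and 12242 against 7536 gene UMIs, a ratio of 1.62. Whether the cells themselves held more RNA was not tested. Each of the 31 genes had more UMIs per cell in strong IR than in NC, where 89.3% of all genes measured did. CHMP2B, which was lower in strong IR as a share of UMIs, still gave 0.78 UMIs per cell against 0.61 in NC. VPS28 gave 2.63 against 1.12. Mix1 cells held 17.6 ESCRT UMIs on average, with 28 of 31 members above NC, beside 77.2% of all genes. Weak IR cells held 13.5 and R cells 13.3.

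To describe single members, a ratio at or below 0.8 was counted as lower and a ratio at or above the inverse of 0.8 as higher. In strong IR against NC 3 members were higher (VPS28, CHMP3 and CHMP1B) and 4 were lower (STAM2, VPS37A, CHMP2B and VPS4A), of 28 measured, whereas 19.3% of all genes measured were higher and 32.3% were lower. The split between higher and lower members depended on the scaling. It was 7 higher and 1 lower after TMM scaling, where 24.3% and 26.1% of all genes were past the limit, 6 and 2 with median-of-ratios scaling (23.0% and 27.4%), and 7 and 2 without mitochondrial and ribosomal protein genes (24.6% and 26.3%). VPS28, CHMP3 and CHMP1B were among the higher members under each of these scalings, and STAM2 was lower under each. CHMP2A, MVB12A and UBAP1, inside the limit with CPM, were also higher under each of these other scalings. CHMP7 joined them with TMM scaling and without mitochondrial and ribosomal protein genes. In strong IR against weak IR, which shared a hashtag and a library, VPS28, CHMP3 and CHMP1B were again higher and CHMP2B lower, of 27 measured, beside 17.3% and 27.4% of all genes. CHMP2B crossed back inside the limit with median-of-ratios scaling or without mitochondrial and ribosomal protein genes, which left 3 higher and 0 lower in both. Of all genes, 20.6% were higher and 23.3% lower with the first of these settings, and 21.5% and 22.6% with the second.

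In weak IR against NC 0 members were higher and 1 was lower (STAM2), of 28, beside 4.09% and 4.44% of all genes. With TMM scaling it was 1 higher and 0 lower, beside 6.85% and 2.15% of all genes. In R against NC 0 were higher and 4 were lower (HGS, STAM2, CHMP4C and VTA1), beside 6.77% and 10.3%. Without mitochondrial and ribosomal protein genes this became 2 higher and 2 lower, beside 10.1% and 9.27% of all genes. In Mix1 against NC 3 were higher (VPS28, CHMP1B and CHMP7) and 3 were lower (CHMP4B, IST1 and VPS4A), beside 16.7% and 25.4%. It was 5 higher and 3 lower with TMM, beside 20.6% and 20.6% of all genes. Without mitochondrial and ribosomal protein genes it was 6 and 2, beside 22.2% and 19.7%. At a limit of 1.5-fold no measured member passed in any of the 5 comparisons, whereas 25.3% of all genes did so in strong IR against NC, 1.19% in weak IR, 3.28% in R, 17.0% in Mix1 and 17.8% in strong IR against weak IR. With CPM of all kept cells, 25% of members were past the first limit in either direction in strong IR, beside 51.7% of all genes. It was 21.4% beside 42.2% in Mix1, and 14.8% beside 44.7% in strong IR against weak IR. In weak IR it was 3.57% beside 8.53%, and in R 14.3% beside 17.1%. These last 2 shares rest on 1 and 4 members, and that of R was near the share of all genes. The 4 comparisons with NC share its cells. Mix1 is another library, so library and preparation cannot be told apart there.

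**Figure D2:**
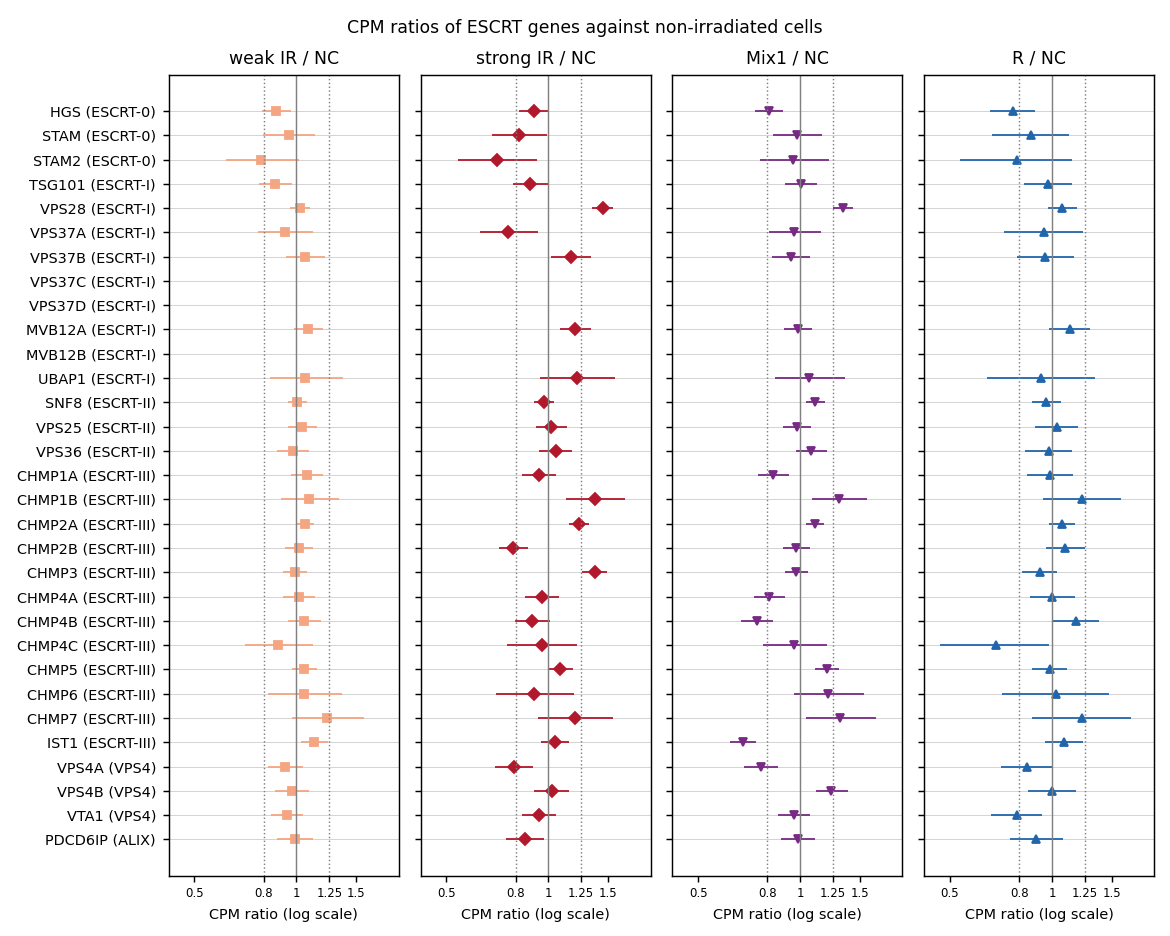
Ratio of CPM to NC (horizontal axes, log scale) for each ESCRT gene measured, in weak IR, strong IR, Mix1 and R. Points are ratios, lines their exact 95% intervals (counting error only), and dotted lines the limit of 0.8 and its inverse. VPS28 lies right of the upper limit in strong IR (1.45) and Mix1 (1.33), and no point passes 1.5-fold.

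ESCRT-0 was lower than NC in all 4 other populations when its genes were summed, at 114 CPM in NC, 100.2 in weak IR, 98.7 in strong IR, 89.8 in R and 98.0 in Mix1. HGS, the ubiquitin-binding scaffold of the complex, was its most abundant member, with 77.2 CPM in NC, 67.2 in weak IR, 69.9 in strong IR, 59.0 in R and 62.3 in Mix1. The R ratio of HGS was 0.76 (0.66 to 0.89). STAM2, its partner beside STAM, had 12.6 CPM in NC, 9.94 in weak IR, 8.88 in strong IR, 9.93 in R and 12.03 in Mix1, and NC and Mix1 were thus the high populations. Its strong IR ratio was 0.70 (0.54 to 0.92), while the intervals of the weak IR ratio (0.79, 0.62 to 1.02) and the R ratio (0.79, 0.54 to 1.15) included 1. NC had only 77 UMIs of STAM2. STAM lay between 19.9 and 24.2 CPM.

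ESCRT-I was the subcomplex with the highest summed ratio in strong IR, at 363 CPM in NC and 448 in strong IR, a ratio of 1.23 (1.18 to 1.29), and most of this gap was VPS28. VPS28, a core subunit that binds ESCRT-II, had 149 CPM in NC, 152 in weak IR, 215 in strong IR, 159 in R and 198 in Mix1. Strong IR and Mix1 were high, and NC, weak IR and R formed a lower group. Its ratio to NC was 1.45 in strong IR (1.35 to 1.55) and 1.33 in Mix1 (1.2495 to 1.43), against 1.02 in weak IR (0.96 to 1.10) and 1.07 in R (0.97 to 1.18). VPS28 lies on the minus strand of chromosome 8 (144423601 to 144428563, GRCh38) and overlaps no other gene of GENCODE 44.

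With CPM the other measured ESCRT-I genes stayed inside the limit or were lower in strong IR. MVB12A and UBAP1 passed the upper limit under the other scalings given above. With CPM 4 of the 6 measured genes of the subcomplex, VPS28 included, had ratios to NC above 1. VPS37A had 22.0 CPM in NC, 20.3 in weak IR, 16.7 in strong IR, 20.7 in R and 21.0 in Mix1, so that strong IR alone was low, with a ratio of 0.76 (0.63 to 0.93). VPS37B, an alternative subunit for the place of VPS37A in the complex, had 41.6 CPM in NC, 44.2 in weak IR, 48.4 in strong IR, 39.7 in R and 39.0 in Mix1, and its strong IR ratio was 1.16 (1.02 to 1.34). MVB12A had 72.7 CPM in NC, 78.9 in weak IR, 87.4 in strong IR, 82.0 in R and 71.6 in Mix1, with a strong IR ratio of 1.201 (1.08 to 1.33). UBAP1 had 12.3, 13.04, 14.9, 11.4 and 13.02 CPM in the same order, with a ratio of 1.21 (0.95 to 1.57). VPS37B, MVB12A and UBAP1 were thus, like VPS28, at their highest in strong IR. TSG101, which recognises ubiquitin and the viral late domain, lay between 49.6 and 57.5 CPM. VPS37C (3.60 to 5.35 CPM), VPS37D (3.28 to 5.35 CPM) and MVB12B (1.80 to 4.35 CPM) were too low to be measured by the limit used. Each was lowest in NC and highest in strong IR, from only 22, 20 and 11 UMIs in NC. Their strong IR ratios were 1.48 (0.94 to 2.44), 1.63 (1.02 to 2.75) and 2.41 (1.30 to 4.97). The Mix1 ratio of MVB12B was 2.39 (1.33 to 4.81).

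ESCRT-II was level in the Mix2 populations. Its 3 genes summed to 296 CPM in NC and 296 CPM in strong IR, a ratio of 0.999 (0.95 to 1.05). SNF8, a core subunit, had 163 CPM in NC, 164 in weak IR, 158 in strong IR, 156 in R and 179.7 in Mix1, where the ratio was 1.11 (1.04 to 1.18). VPS25, which binds ESCRT-III, lay between 69.9 and 74.4 CPM, and VPS36, which binds ubiquitin and phosphoinositide, between 60.2 and 66.4 CPM.

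ESCRT-III summed to 797 CPM in NC and 870 CPM in strong IR, a ratio of 1.09 (1.06 to 1.13), and its members moved in both directions. CHMP2A, the most abundant, had 178 CPM in NC, 189 in weak IR, 219 in strong IR, 190.2 in R and 197 in Mix1. Strong IR was highest and NC lowest, with a ratio of 1.23 (1.15 to 1.31) that stayed just under the limit with CPM. It passed the limit under the other scalings given above, and over all alternatives it lay between 1.14 and 1.30. CHMP2B, its paralogue, had 80.8 CPM in NC, 82.1 in weak IR, 63.7 in strong IR, 88.1 in R and 78.6 in Mix1. Only strong IR was low, at a ratio of 0.79 to NC (0.71 to 0.87) and of 0.78 to weak IR (0.73 to 0.82).

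CHMP3, which assembles with CHMP2A in the filament that VPS4 acts on, had 109 CPM in NC, 108 in weak IR, 149 in strong IR, 100.4 in R and 106 in Mix1. Strong IR alone was high, at a ratio of 1.37 to NC (1.26 to 1.49) and of 1.39 to weak IR (1.33 to 1.45), and Mix1 gave 0.97 (0.90 to 1.05). CHMP3 (chromosome 2, 86503430 to 86563479, minus strand) overlaps the readthrough gene RNF103-CHMP3 on the same strand, which had 0 CPM in strong IR, so reads that fit both genes cannot be assigned from these counts. CHMP1B, a late subunit with IST1, had 19.5 CPM in NC, 21.3 in weak IR, 26.8 in strong IR, 23.9 in R and 25.4 in Mix1. Its ratio was 1.37 in strong IR (1.13 to 1.68) and 1.30 in Mix1 (1.08 to 1.58), from 119 UMIs in NC. CHMP1B (chromosome 18, 11851413 to 11854444, plus strand) lies within GNAL on the same strand, which had 6.27 CPM in strong IR. In all, 7 of the 31 genes overlap another gene of the matrices on the same strand, and GNAL had the highest level of these in strong IR.

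IST1 and CHMP4B were the ESCRT-III genes past the lower limit in Mix1. IST1, which regulates VPS4 and takes part in abscission, had 86.7 CPM in NC, 97.7 in weak IR, 90.6 in strong IR, 93.6 in R and 58.8 in Mix1, a Mix1 ratio of 0.68 (0.62 to 0.74). CHMP4B, the main subunit of the filament, had 56.8 CPM in NC, 59.9 in weak IR, 51.0 in strong IR, 66.8 in R and 42.2 in Mix1, a Mix1 ratio of 0.74 (0.67 to 0.83). For both genes the 4 populations of Mix2 lay above Mix1. Whether this belongs to the library or to the cells cannot be told apart.

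The rarer ESCRT-III genes gave wide intervals. CHMP4C, which delays abscission when chromatin is trapped in the bridge, had 14.6 CPM in NC, 12.9 in weak IR, 13.9 in strong IR, 9.93 in R and 13.997 in Mix1, and R gave 0.68 (0.47 to 0.98) from 47 UMIs. CHMP6, which links ESCRT-II to the filament, had 11.96, 12.6, 10.9, 12.3 and 14.4 CPM in the same order, and none of its ratios passed the limit. CHMP7, which starts the resealing of the nuclear envelope, had 12.5 CPM in NC, 15.3 in weak IR, 14.9 in strong IR, 15.2 in R and 16.3 in Mix1. NC was the lowest of the 5, and the Mix1 ratio was 1.31 (1.04 to 1.67). Of the remaining members, CHMP1A lay between 50.6 and 65.4 CPM, CHMP4A between 51.4 and 64.5, and CHMP5 between 101 and 123. Mix1 was lowest for CHMP1A and CHMP4A, at ratios of 0.83 (0.75 to 0.92) and 0.81 (0.73 to 0.90). For CHMP5 it was highest, at 1.195 (1.10 to 1.30).

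The VPS4 group summed to 169 CPM in NC and 155 CPM in strong IR, a ratio of 0.92 (0.86 to 0.99). VPS4A had 52.6 CPM in NC, 48.6 in weak IR, 41.6 in strong IR, 44.4 in R and 40.2 in Mix1, and the ratio was 0.79 in strong IR (0.70 to 0.90) and 0.77 in Mix1 (0.68 to 0.86). VPS4B, the other ATPase, had 55.7 CPM in NC, 53.9 in weak IR, 57.0 in strong IR, 55.6 in R and 68.8 in Mix1. Its Mix1 ratio was 1.24 (1.11 to 1.38). The cofactor VTA1 had 60.3 CPM in NC, 56.4 in weak IR, 56.5 in strong IR, 47.3 in R and 57.7 in Mix1, with a ratio of 0.79 in R (0.66 to 0.93). PDCD6IP, which recruits CHMP4 directly and so bypasses ESCRT-I and ESCRT-II, had 50.1 CPM in NC, 49.5 in weak IR, 42.8 in strong IR, 45.0 in R and 49.4 in Mix1, and its strong IR ratio was 0.85 (0.75 to 0.97).

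Several members come as paralogues that can take the same place, and their share within the family does not depend on the scaling. CHMP2A made up 68.8% of CHMP2A and CHMP2B UMIs in NC (66.5 to 71.1), 69.7% in weak IR, 77.5% in strong IR (76.6 to 78.4), 68.3% in R and 71.5% in Mix1. CHMP1B made up 24.2% of CHMP1A and CHMP1B UMIs in NC (20.5 to 28.3), 24.5% in weak IR, 31.9% in strong IR (30.01 to 33.9), 28.5% in R and 33.4% in Mix1. For both families strong IR and Mix1 lay above NC and weak IR. VPS37A made up 31.2% of its family of 4 in NC and 22.1% in strong IR, a difference of -9.08 points, but 30.7% in Mix1. VPS4B made up 51.4% of VPS4A and VPS4B UMIs in NC, 57.8% in strong IR and 63.1% in Mix1. CHMP4A, CHMP4B and CHMP4C kept their shares within 1.56 points between NC and strong IR, and in R CHMP4B was 5.50 points above NC.

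**Figure D3:**
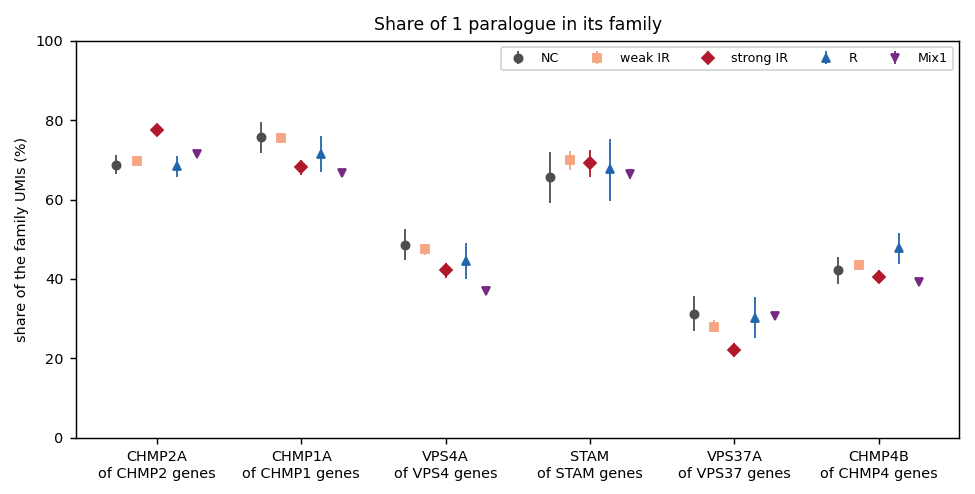
Share (%) of 1 paralogue in the summed UMIs of its family, for 6 families and the 5 populations, with exact 95% binomial intervals (counting error only). The CHMP2A share stands at 77.5% in strong IR against 68.8% in NC, and the VPS4A share falls to 36.9% in Mix1.

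The levels also moved along the hashtag count within the irradiated cells of Mix2. Over 6 ranges of tag8, from 500 to 999 up to 12000 and over, VPS28 had 158, 146, 159, 197, 224 and 229 CPM, while CHMP2B had 87.1, 80.2, 81.9, 74.1, 63.3 and 50.04 CPM. CHMP3 went from 111 CPM in the first range to 162 CPM between 6000 and 12000 counts and 149.6 above. CHMP1B was highest between 3159 and 6000 counts, with 29.96 CPM, and returned to 21.4 CPM at 12000 and over, near the 21.9 CPM of the first range. The 31 genes summed to 1840 CPM in the first range, 1961 and 1969 in the fourth and the fifth, and 1775 in the last. Over the same ranges the G2 and M genes went from 3815 to 1099 CPM, the median depth from 5720 UMIs to 13371 in the fifth range and 10713 in the last, and the mitochondrial share from 6.44% to 3.61%. Their part in the levels along tag8 was not tested.

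**Figure D4:**
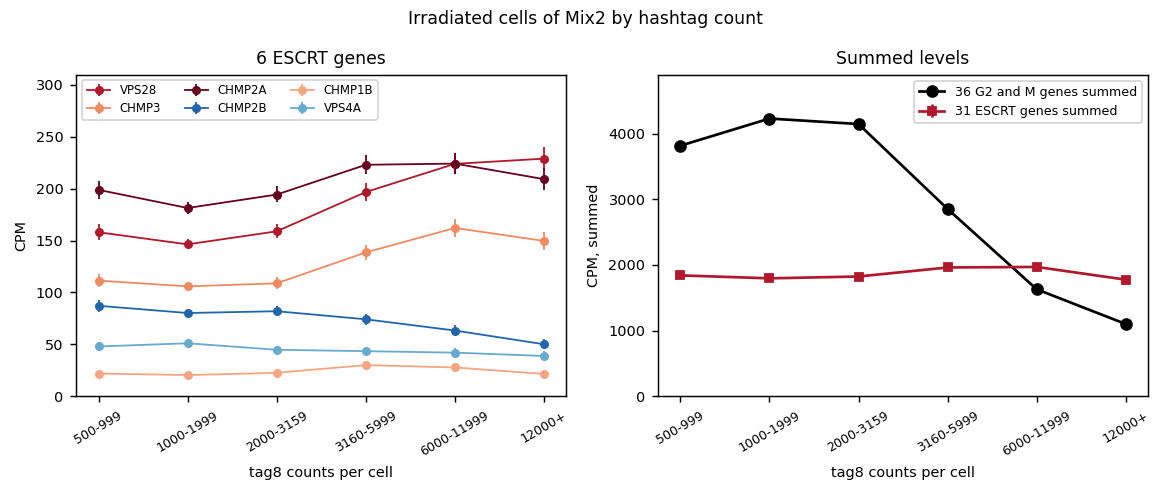
Levels (CPM, vertical axes) over 6 ranges of tag8 counts per cell in the irradiated cells of Mix2, for 6 ESCRT genes on the left and for the summed ESCRT and G2 and M genes on the right. Bars are exact 95% Poisson intervals, drawn for the ESCRT genes only. VPS28 climbs to 229 CPM and CHMP2B goes down to 50.04 CPM, while the ESCRT sum stays between 1775 and 1969 CPM.

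Cells were next divided at the median share of G2 and M UMIs among NC cells. Below this value were 405 of the 810 NC cells, 62.0% of weak IR, 87.0% of strong IR, 49.3% of R and 83.9% of Mix1. Within strong IR, VPS28 had 228 CPM in cells below and 134 CPM in cells at or above it, and within Mix1 212 and 144 CPM. In NC the values were 149 and 149 CPM. CHMP3 had 156 CPM below and 110.3 above in strong IR, 113 and 77.5 in Mix1, and 102 and 115 in NC. CHMP1B had 28.4 and 17.1 CPM in strong IR, 27.9 and 14.9 in Mix1, and 20.5 and 18.6 in NC. In strong IR and Mix1 these 3 genes were higher in the cells with few G2 and M transcripts. Weak IR had the same direction with smaller ratios of cells below to cells above, 1.08 for VPS28 (1.03 to 1.13), 1.11 for CHMP3 (1.05 to 1.18) and 1.30 for CHMP1B (1.14 to 1.48). R gave 0.97 (0.84 to 1.13), 0.84 (0.69 to 1.01) and 1.42 (0.97 to 2.10).

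CHMP2B, CHMP6 and VPS4A were lower in those cells in strong IR and Mix1, with ratios of 0.78, 0.75 and 0.78 in strong IR and 0.78, 0.78 and 0.79 in Mix1, although the interval of CHMP6 in strong IR (0.56 to 1.03) included 1. The same ratios were 1.01, 1.0004 and 0.86 in weak IR and 1.11, 1.02 and 1.17 in R. In all, 4 members were higher and 3 lower of 27 in strong IR, beside 17.1% and 31.5% of all genes, and 3 were higher and 4 lower of 28 in Mix1, beside 10.3% and 31.6%. Weak IR gave 1 higher and 1 lower of 28, beside 3.17% and 6.98%, and R 1 higher and 6 lower of 28, beside 8.62% and 20.9%. NC gave 2 higher and 3 lower, beside 6.84% and 15.5%, and VPS28, CHMP3, CHMP1B, CHMP2B and VPS4A were not among them. When only cells at or above the value were compared with NC, the strong IR ratio was 0.90 for VPS28 (0.80 to 1.02), 0.96 for CHMP3 (0.83 to 1.10) and 0.92 for CHMP1B (0.64 to 1.32), from 289 cells. With cells below it the ratios were 1.54 (1.39 to 1.70), 1.53 (1.35 to 1.73) and 1.38 (1.06 to 1.84). CHMP2A changed little between these settings, with 1.14 (1.02 to 1.28) and 1.202 (1.10 to 1.32). STAM2 went from 0.57 (0.36 to 0.89) in cells at or above the value to 1.04 (0.68 to 1.66) below it.

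**Figure D5:**
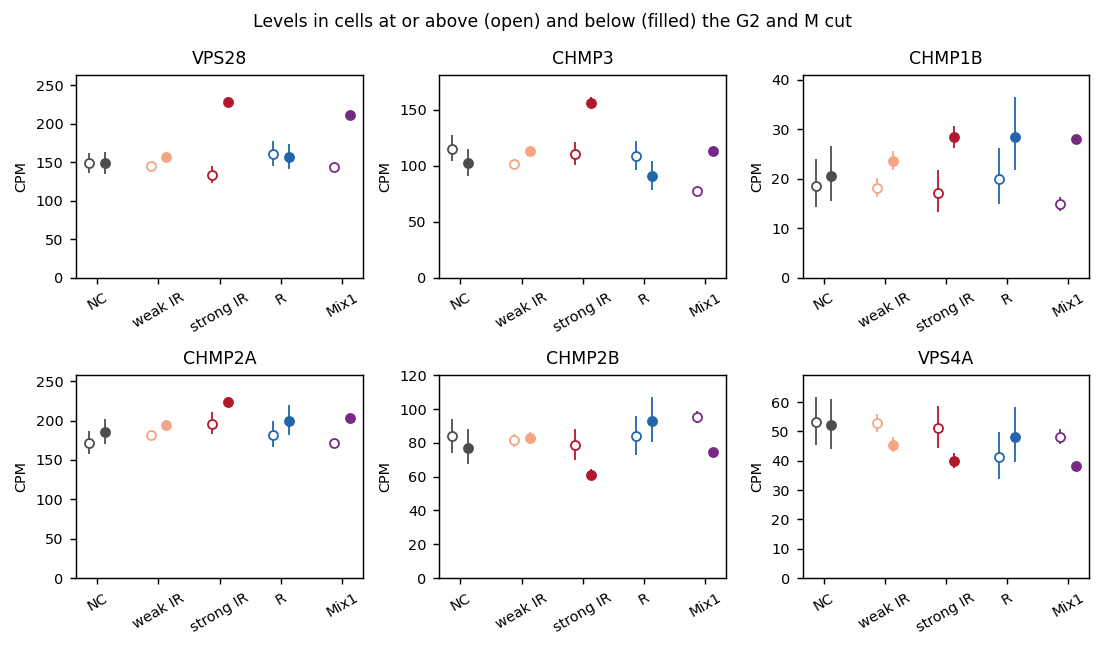
Levels (CPM) of 6 ESCRT genes in cells at or above (open) and below (filled) the NC median share of G2 and M UMIs, by population, with exact 95% Poisson intervals. In strong IR, VPS28 stands at 134 CPM in open and 228 CPM in filled points, while both NC points are at 149 CPM.

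Depth per cell could also bear on these levels, so cells of 5000 to 10000 UMIs were compared. VPS28 had 144 CPM in NC, 147 in weak IR, 249 in strong IR, 156 in R and 184 in Mix1, with median depths of 7148 UMIs in NC and 7997 in strong IR. CHMP2B had 79.5 CPM in NC and 62.4 in strong IR, and CHMP3 107 and 151. Cells below 5000 UMIs showed VPS28 at 148 CPM in NC, 213 in weak IR, 236 in strong IR, 151 in R and 266 in Mix1, so that shallow irradiated cells were high in weak IR as well. The mitochondrial share of those cells was 6.30% in NC, 5.72% in weak IR, 3.60% in strong IR and 2.49% in Mix1, and its part in the levels was not tested.

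After each cell was thinned to 5000 UMIs, VPS28 was detected in 51.2% of NC cells (47.4 to 55.0), 50.9% of weak IR, 63.2% of strong IR (61.1 to 65.3), 53.8% of R and 57.0% of Mix1. Without thinning the shares were 65.4%, 62.9%, 86.1%, 63.8% and 71.4%. CHMP2B was detected in 31.04% of NC cells (27.6 to 34.6) and 26.5% of strong IR cells (24.6 to 28.5) at equal depth. All populations are of 1 cell line, so there was no cell type known to lack these genes to give a background share. Thinned cells held a median of 9 ESCRT UMIs from 7 members in each of the 5 populations. The SD over strong IR cells was 3.52 UMIs, where counting alone would give 3.08, and over NC cells 3.1005 against 2.98. Cells under 5000 UMIs were left out, which removed 111 of NC, 1099 of weak IR, 150 of strong IR, 96 of R and 4963 of Mix1.

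Strong IR against weak IR and Mix1 against NC share no cells, so they can be set side by side. Of the 27 members measured in both, 8 were above 1 in both comparisons and 10 were below 1 in both, and VPS28 and CHMP1B passed the upper limit in both. These are 29.6%, 37.0% and 7.41% of the members, beside 27.9%, 46.1% and 9.86% of all 7424 genes measured in both. Spearman's rho across these genes was 0.42, beside 0.64 across all of those genes. Genes are not independent replicates, and this is a description only.

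Genes that work with the machinery were then examined. Of 28 partners (adaptors, ubiquitin ligases and deubiquitinases) 21 were measured in strong IR against NC, where 5 were higher and 4 lower. Of 10 genes of the syntenin exosome route 7 were measured, with 2 higher and 0 lower, and of 19 genes of retromer and the endosomal tethers 15 were measured, with 2 higher and 4 lower, beside the 19.3% and 32.3% of all genes given above. The median log2 ratios were -0.05, 0.14 and -0.12.

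CEP55, which recruits PDCD6IP and TSG101 to the midbody, had the lowest ratio among the genes measured in these lists, with 107 CPM in NC, 94.5 in weak IR, 43.3 in strong IR, 112 in R and 66.3 in Mix1. The strong IR ratio was 0.40 (0.37 to 0.45). NEDD4, a ubiquitin ligase just under the 10 CPM minimum, had 9.99 CPM in NC and 4.02 in strong IR, a like ratio of 0.40 (0.29 to 0.56). In the other direction TOM1L2, also a partner under that minimum, had 4.26 CPM in NC and 8.26 in strong IR, a ratio of 1.94 (1.29 to 3.03). Among cells at or above the G2 and M value CEP55 had 135 CPM in NC, 136 in weak IR, 128 in strong IR, 157 in R and 155 in Mix1. Among cells below that value CEP55 had 74.3, 62.6, 29.0, 59.6 and 44.4 CPM in the same order. CEP55 was not among the 36 genes that set this value. SDCBP, the syntenin that binds PDCD6IP on the exosome route, had 32.3 CPM in NC, 38.0 in weak IR, 31.6 in strong IR, 42.9 in R and 34.8 in Mix1, and the strong IR ratio was 0.98 (0.84 to 1.15). In the droplets of Mix2 without cells SDCBP stood at 203 CPM, above each population. With an assumed 10% of such background subtracted, it had 13.3 CPM in NC and 12.6 in strong IR, a ratio of 0.95. Much of its level could thus be cell-free RNA, which was not tested.

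Among the measured genes the 3 highest ratios belonged to LITAF, an endosomal membrane protein, with 29.7 CPM in NC and 66.5 in strong IR (2.24, 1.93 to 2.63), SDC4, the syndecan cargo of syntenin, with 29.3 and 60.5 CPM (2.06, 1.77 to 2.42), and TGFBRAP1, a tethering subunit, with 7.54 and 12.1 CPM (1.60, 1.18 to 2.24). In weak IR, R and Mix1 LITAF had 40.3, 43.1 and 48.0 CPM, SDC4 32.9, 23.5 and 44.7 CPM, and TGFBRAP1 7.94, 8.88 and 10.2 CPM. LITAF was thus lowest in NC, while SDC4 was lowest in R. LITAF stood at 148 CPM in the droplets of Mix2 without cells, above each population. With an assumed 10% of such background subtracted, its strong IR ratio was 3.48. After CEP55 the lowest ratios of measured genes were those of EEA1, a tether of early endosomes, with 27.0 CPM in NC and 15.6 in strong IR (0.58, 0.48 to 0.69), and STAMBPL1, a deubiquitinase related to the one that binds STAM, with 11.3 and 6.71 CPM (0.59, 0.45 to 0.80). EEA1 had 26.1 CPM in weak IR, 27.5 in R and 26.0 in Mix1, so that it was low in strong IR alone, and STAMBPL1 had 9.21, 8.24 and 8.99 CPM.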

How the data were processed

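Gene expression was measured in HCT116 cells in Mix1 and Mix2. The deposited values are raw UMI counts, whole numbers per gene and barcode over 33538 genes of GRCh38. The authors obtained them with Cell Ranger, whose version is 3.1.0 in the header of Mix1 and 3.0.1 in that of Mix2. The kit was version 3.1. The unfiltered matrix of Mix2 had 0 differing entries over the cell barcodes and served only for 20682 droplets without cells (10 to 100 UMIs).

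Cells with at least 200 genes and under 10% mitochondrial UMIs were kept: 15630 of 17019 barcodes in Mix1 and 11652 of 13888 in Mix2. A population needed its own tag at 80% or more of the 3 tags and at least 374 counts of tag6 (NC), 104 of tag7 (R), 3160 of tag8 (strong IR) or 500 of tag8 (weak IR), which left 1671 cells of Mix2 in none. This share also leaves out droplets with mixed tags. No doublet caller was run, so pairs of cells with the same tag, and doublets of Mix1, remain.

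UMIs were summed per population and divided by the total (CPM). Ratios have exact conditional binomial intervals, levels exact Poisson and shares Clopper-Pearson intervals, all at 95%. The interval method was tested on simulated data. Tools were Python 3.11.15, scipy 1.17.1 and edgeR 4.0.16 (TMM factors only). Gene positions came from GENCODE 44, and all 31 gene IDs matched. Promoters came from RefSeq (GRCh38.p14).

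The members, gene lists and limits were chosen with earlier results of these data known. Named genes were those past 1.25-fold in any comparison, the most abundant member of each subcomplex, CHMP2A, VPS28, VPS37B, CHMP4C, CHMP6 and CHMP7 (which the study names), CEP55, SDCBP, and the 3 highest and 3 lowest ratios of strong IR to NC in the partner lists. NEDD4, TOM1L2 and the full values of MVB12A and UBAP1 were added after their values were seen. The same holds for the ratios of VPS37C, VPS37D and MVB12B, and for the Mix1 ratios of CHMP1A, CHMP4A, CHMP5 and VPS4B. Alternatives changed the scaling, cell filter, tag rule, depth, minimum level, fold limit, background and cell cycle share. Comparisons restricted to cells at or above the G2 and M value, or to cells of 5000 to 10000 UMIs, were added after the data had been seen.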

Additional observations from a re-analysis of the deposited data

Results flagged for a closer look

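Droplets of Mix2 without cells, which no comparison uses, held ESCRT transcripts at 1406 CPM (485 UMIs, 95% interval 1283 to 1537), where the floor of 3 counts for a single gene at 0 was 8.69 CPM. Of the 31 genes, 30 had at least 1 UMI there, and VPS28 stood at 119 CPM, CHMP2A at 95.6 and CHMP1B at 63.8 CPM. The value of CHMP1B (22 UMIs, 39.96 to 96.5 CPM) was above its level in each population (19.5 to 26.8 CPM). STAM2 and VPS37A each stood at 26.1 CPM there (9 UMIs, 11.9 to 49.5 CPM). This was above STAM2 (8.88 to 12.6 CPM) and VPS37A (16.7 to 22.0 CPM) in the populations. TSG101, VPS37B, VPS37C, MVB12B, UBAP1, CHMP4A and PDCD6IP were also above each population, with intervals that included the population levels. The level summed over the 31 genes was below that of each population of cells (1777 to 1909.9 CPM). With 10% of each Mix2 profile subtracted as such background, the strong IR ratio to NC was 1.48 for VPS28 and 1.55 for CHMP1B. The 10% was assumed to be the same in each population and was not estimated.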

How the results depend on the processing

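No paired analysis was possible because each population was 1 sample, and for the same reason no replicate could be left out. Background could be subtracted in Mix2 only. Of 532 ratios of named members and sums under the alternatives, 13 reversed, which was counted only for members past the limit in that comparison. Of the others, 433 stayed within the counting interval of the reported ratio and 86 moved beyond it. These include sums and named members inside the limit that crossed 1. The summed ratio of strong IR to weak IR, for example, lay between 0.96 and 1.09.

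The number of members past the limit in strong IR against NC (7) became 15 in cells under 5% mitochondrial UMIs, 14 in cells of 5000 to 10000 UMIs, 3 in cells at or above the G2 and M value and 0 at 1.5-fold. In weak IR against NC (1) it was 5 under 5% mitochondrial UMIs, 4 at a tag share of 95%, 2 in cells at or above the G2 and M value, 2 with no minimum level, and 0 with no cell filter, from 1000 tag8 counts, without the 5% of cells with most UMIs, at a 20 CPM minimum and at 1.5-fold. In R against NC (4) it was 15 under 5% mitochondrial UMIs, 13 at a tag share of 95%, 2 at 20 CPM and 0 at 1.5-fold. In Mix1 against NC (6) it was 10 under 5% mitochondrial UMIs and 0 at 1.5-fold, and in strong IR against weak IR (4) it was 8 under 5% mitochondrial UMIs, 10 in cells of 5000 to 10000 UMIs, 7 with no minimum, 2 in cells at or above the G2 and M value and 0 at 1.5-fold. The limit of 5% left 172 cells of NC and 31 of R, and the tag share of 95% left 88 and 44, so these counts rest on few cells. Except at 1.5-fold, where it is given above, the share of all genes past the limit was not computed under the settings of this paragraph. Whether the members differ from all genes there was thus not tested.

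In cells at or above the G2 and M value the ratios reversed for VPS28 (0.90 in strong IR and 0.97 in Mix1 against NC, 0.92 in strong IR against weak IR), CHMP1B (0.92, 0.80 and 0.94) and CHMP3 (0.96 in strong IR against NC). In cells below it STAM2 reversed, to 1.04 in strong IR and 1.03 in weak IR against NC. At a tag share of 95% CHMP2B in strong IR (1.01), CHMP4C in R (1.003) and CHMP4B in Mix1 (1.08) reversed against NC, and under 5% mitochondrial UMIs CHMP1B in strong IR against weak IR (0.90). The causes were not tested. The summed ESCRT ratio of strong IR to NC stayed between 0.99 and 1.13.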
